A study of Mus musculus with 12 samples.

Results

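The 38 genes described here carry out glycolysis, glycogen storage and the buffering of energy in muscle. They were chosen by name from the 27306 gene symbols of the deposited expression table, with every probe that carries 1 of these symbols, which gave 82 of 56605 probes. Of these 82 probes, 71 were bright enough to be tested, which covered 36 genes, and 63 were clearly above background on each of the 12 arrays. The 11 probes not tested included 7 that were well above background on no array, and the genes Pygl and Phkg1 had no tested probe. Counted as muscle isoforms were 11 members (Slc2a4, Pfkm, Pgam2, Eno3, Pygm, Phka1, Phkg1, Ckm, Ckmt2, Ak1 and Ampd1), and the other 27 as forms found in many tissues or typical of other tissues.

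RNA came from C2C12 cells, a myoblast line from the muscle of C3H mice that stops dividing and fuses into myotubes when serum is lowered. Cells received either the negative control siRNA siControl or siBach1-2, a single siRNA against the transcription repressor Bach1, labelled siBach1 here. Both were sampled before induction (day 0) and after 2 days in medium with 2% horse serum, begun 24 hours after transfection (day 2), with 3 arrays for each of the 4 conditions. The labels do not say whether the 3 arrays of a condition came from separate cultures, so the p-values measure the spread between these samples. With only 1 siRNA sequence against Bach1, effects of that sequence and of lower Bach1 cannot be told apart.

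Glycolysis breaks glucose down to pyruvate, which is either reduced to lactate or carried into mitochondria and oxidised through pyruvate dehydrogenase. Many of its steps are run by families of isoenzymes, in which a gene used mainly by skeletal muscle stands beside genes used by most cells, by liver or by brain. Muscle also stores glucose as glycogen and keeps phosphocreatine as a rapid reserve for ATP.

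Levels are given as log2 signal relative to the 75th percentile of the array, so that 0 is a bright probe and a difference of 1 is a 2-fold change. Levels of different probes cannot be set against each other, and only changes are compared between genes. A change is said to have passed where its Benjamini-Hochberg adjusted p in a limma fit over 29664 tested probes was under 0.05, and to be called where it also reached 2-fold. Values after ± are standard errors of that fit unless another error is named. Where an adjusted p is given as up to a value without named arrays, it was over 0.05 without each of them in turn, and the highest is printed. A test said to be lost had an adjusted p over 0.05 with the named setting, among them a fit with dim probes kept in, a fit to only the arrays of the comparison and the methods' t-test after Benjamini-Hochberg adjustment. Between 47.6% and 58.9% of probes were well above background per array, and no spot was saturated. Bach1 itself lay at 1.73, 1.55 and 1.78 in siControl and at 0.18, -0.22 and -0.22 in siBach1 cells at day 0, and at 2.56, 2.55 and 2.58 against 0.57, 0.56 and 0.65 at day 2, a log2 change of -1.77 ± 0.11 (SE) and -1.97 ± 0.11. The 11 muscle differentiation markers on the array were well above background on every array, and all 11 rose from day 0 to day 2 with either siRNA. Of 12 markers of other cell types, whose summed log2 level was 2.22 to 2.62 over the day 0 arrays and 1.41 to 2.25 over the day 2 arrays, the fat markers Adipoq and Cfd, the macrophage marker Adgre1, the endothelial marker Cdh5 and the epithelial marker Epcam were well above background on no array, while Ptprc and Cd68, markers of blood cells, gave such a signal on each of the 12. Pecam1, another endothelial marker, gave such a signal on 3 of 3 siControl and 2 of 3 siBach1 arrays of day 0 and on all arrays of day 2. The epithelial marker Krt18 and the bone marker Ibsp gave it on 1 of 3 siBach1 arrays of day 0 and on no other array. Of the 5 of these markers that were tested, the bone marker Bglap was called higher on silencing at day 2 (1.90 ± 0.33, adjusted p = 0.0057). It was tested only through siBach1 day 2, the group where it was highest, and gave a signal well above background on 2 of 3 siControl arrays of that day and on 1 of 3 siControl and 2 of 3 siBach1 arrays of day 0, so its changes rest partly on signals below that limit. The fat marker Plin1 was likewise tested only through the day 2 groups, with a mean level of -4.03 at day 0, where 2 of 3 arrays were well above background, and -2.76 at day 2 in siControl cells. Cd68 and Ptprc fell with differentiation by 1.14 and 0.79 in siControl and by 0.50 and 0.70 in siBach1 cells, and Cd68 passed as lower on silencing at day 0 (-0.48, adjusted p = 0.018). The part of these changes in the results on the members was not tested. Arrays of replicates 1 and 2 shared a slide and those of replicate 3 lay on another. Each condition had its own place on the slides, so place and condition cannot be told apart.

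Between day 0 and day 2 the muscle isoforms rose, and most other members changed little or fell. In such bulk RNA, a change in the share of cells that express a gene and a change in RNA per cell cannot be told apart. In siControl cells the tested muscle isoforms had a median log2 change of 3.08 (range 0.39 to 6.75) and the other members of -0.21 (range -1.32 to 2.19). In siBach1 cells these medians were 3.51 (range 0.50 to 6.78) and -0.39 (range -1.45 to 1.62). Ckmt2 and Ampd1 were tested only because they were bright at day 2, so they had to differ. With their changes set to the lower bounds given below, the medians of the muscle isoforms were 2.09 and 1.76. After normexp background correction the median of the muscle isoforms exceeded that of the other members by 1.71 and 1.98, in place of 3.29 and 3.90. All 10 tested muscle isoforms passed as higher with either siRNA. Over all 36 genes the median change was 0.28 in siControl and -0.06 in siBach1 cells, beside 0.0034 and -0.068 over all tested probes.

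Among the 71 tested member probes, 18 were called higher and 7 lower in siControl cells, where 10.5% and 9.46% of all tested probes were called. In siBach1 cells 19 were called higher and 9 lower, against 10.9% and 9.59% of all tested probes. At the adjusted p alone, 24 passed as higher and 23 as lower in siControl cells, against 24.6% and 28.7% of all tested probes, and 23 and 31 in siBach1 cells, against 23.8% and 32.3%. The counts of higher probes include Ckmt2, Ampd1 and a dim Phkb probe (A_51_P270725) with either siRNA, which were well above background on no day 0 array and were tested only through day 2, so they had to be higher there. Both comparisons are of day 2 with day 0 and use different arrays.

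**Figure D1:**
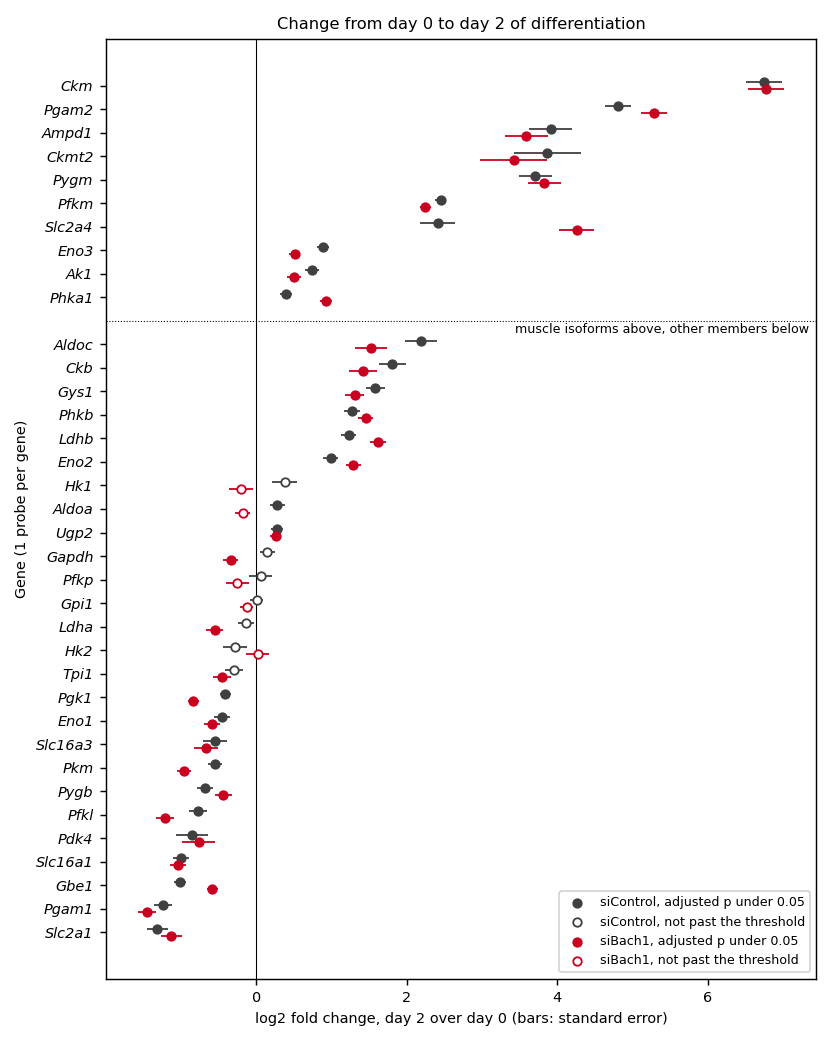
Log2 fold change from day 0 to day 2 for 1 probe per gene in siControl (grey) and siBach1 cells (red), with bars for the standard error and filled points for an adjusted p under 0.05. All 10 tested muscle isoforms lie right of 0, from 0.39 for Phka1 to 6.75 for Ckm in siControl cells, and Ckmt2 and Ampd1 are drawn at fitted values whose day 0 side was not well above background.

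On silencing of Bach1, few members reached a 2-fold change, while at day 2 the adjusted p alone was passed by 7 of the 36 tested genes as higher and 5 as lower. At day 0, Pdk4 was the only member probe called higher and a probe of Pygm the only one called lower, where 0.809% and 1.98% of all tested probes were called. Without the limit on fold, 4 member probes (5.63%) passed as higher and 5 (7.04%) as lower, against 8.8% and 8.32% of all tested probes. At day 2, Slc2a4 and Pdk4 were called higher and 0 probes lower, against 1.52% and 0.651%. In all, 8 member probes (11.3%) passed as higher and 7 (9.86%) as lower, where 5.75% and 6.26% of all tested probes did. The median change of the 36 genes was 0.07 at day 0 and -0.15 at day 2, beside 0.09 and -0.013 over all tested probes.

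The muscle isoforms moved in both directions. Their median silencing effect exceeded that of the other members by 0.12 at day 0 and by 0.29 at day 2, and within replicate numbers by 0.08 to 0.18 and by 0.29 to 0.41. Without siBach1 day 0 replicate 3 the day 0 value was 0.0032, and without siControl day 0 replicate 1 it was 0.0039. Without siControl day 2 replicate 3 the day 2 value was 0.2102. At day 2, 3 of the 10 tested muscle isoforms passed as higher (Slc2a4, Pgam2 and Phka1) and 1 as lower (Eno3), as did 4 and 4 of the 26 other genes. The muscle differentiation markers moved at the same time. Their median change at day 2 was -0.52, 4 of 11 passed as lower (Myog, Actc1, Mb and Tmem8c), and their summed log2 level was 11.2 to 11.3 in siControl and 10.6 to 10.8 in siBach1 cells. Its part in the results on the members was not tested.

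With the replicate number as a block, the count of member probes past the adjusted p at day 2 rose from 15 to 27, of which 9 were higher and 18 lower. In that fit 21.3% of all tested probes passed. The probes gained as lower included 5 of the 7 Gapdh probes (log2 changes -0.22 to -0.31) and the probes of Aldoa (-0.30, block adjusted p = 0.012), Pgam1 (-0.34, block adjusted p = 0.049) and 2 probes of Pkm (-0.23 and -0.22). At day 0 the block took the count from 9 to 12, where 27.5% of all tested probes passed. Gained as higher there were the Pkm probes A_55_P2738982 (0.32, block adjusted p = 0.022) and A_55_P2761004 (0.23, block adjusted p = 0.024). The latter was also among the Pkm probes gained as lower at day 2. Without regard to any test, 24 of the 71 member probes (33.8%) were lower on every siBach1 array than on every siControl array at day 2, against 17.1% of all tested probes. These 24 probes belong to fewer genes, Gapdh alone giving 6 of them, and counted with 1 probe per gene they were 12 of 36. The count was made with the main normalization only, and the 17.1% is over tested probes of any brightness. Among these probes, quantile normalization took the day 2 change of Eno3 from -0.44 to -0.24, and the day 2 test of the bright Pgk1 probe was lost. At day 0, 14 probes were higher and 12 lower without overlap, against 21.9% and 15.4%.

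**Figure D2:**
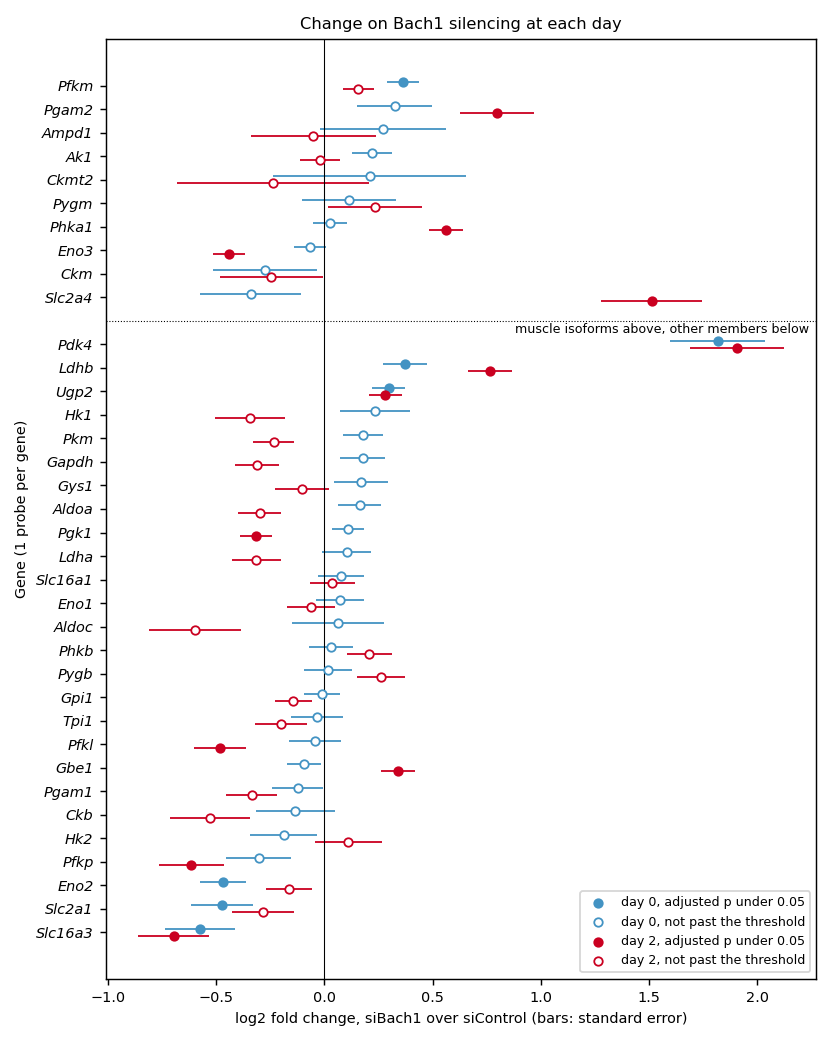
Log2 fold change of siBach1 over siControl cells for 1 probe per gene at day 0 (blue) and day 2 (red), with bars for the standard error and filled points for an adjusted p under 0.05. Pdk4 lies at 1.82 and 1.91, Slc2a4 at -0.34 and 1.51, and the remaining genes lie between -0.70 and 0.80.

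Transport was the first step examined. Slc2a4 encodes GLUT4, the insulin-responsive glucose carrier of muscle and fat. Slc2a4 was at -2.36, -2.78 and -2.71 in siControl and -2.86, -2.80 and -3.22 with siBach1 at day 0, and -0.30, 0.32 and -0.65 against 1.31, 1.52 and 1.08 at day 2. The siBach1 arrays were slightly lower than the siControl arrays at day 0, and at day 2 each was above each siControl array. The rise with differentiation was 2.41 ± 0.23 in siControl (adjusted p = 1.1e-05) and 4.26 ± 0.23 in siBach1 cells (adjusted p = 2.9e-07). Across the alternatives it ranged from 1.60 to 2.63 in siControl and from 3.03 to 4.37 in siBach1 cells. The silencing effect was -0.34 ± 0.23 at day 0 (adjusted p = 0.36) and 1.51 ± 0.23 at day 2 (2.85-fold, adjusted p = 0.0033), with 1.41 on the first slide and 1.73 on the second. The methods' t-test after Benjamini-Hochberg adjustment gave 0.086 for the latter. A second Slc2a4 probe was well above background on no array.

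Slc2a1 encodes GLUT1, the glucose carrier of most dividing cells. Slc2a1 measured 5.42, 5.44 and 5.34 in siControl and 5.01, 4.93 and 4.84 with siBach1 at day 0, and 4.02, 3.79 and 4.45 against 3.74, 3.77 and 3.90 at day 2. It was lower at day 2 on every array. It fell by 1.32 on the log2 scale in siControl and by 1.13 in siBach1 cells (adjusted p = 2.6e-05 and 7.3e-05). At day 0 it was also lower after silencing, with a change of -0.47 ± 0.14 (adjusted p = 0.048), and the adjusted p was up to 0.14 when any array was left out other than siControl day 2 replicates 2 and 3, and 0.16 with dim probes kept in.

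Slc16a1 and Slc16a3 encode the lactate carriers MCT1 and MCT4. Slc16a1 stood at 4.01, 4.06 and 3.96 in siControl and 4.03, 4.10 and 4.13 with siBach1 at day 0, and 2.80, 3.24 and 2.99 against 2.99, 3.07 and 3.08 at day 2. It fell by 1.00 with differentiation in siControl and by 1.04 in siBach1 cells, with silencing effects of 0.08 and 0.04. Slc16a3 lay at 2.19, 2.28 and 2.35 in siControl and 1.65, 1.65 and 1.80 with siBach1 at day 0, and 1.78, 1.32 and 2.09 against 1.01, 0.96 and 1.13 at day 2. Its siBach1 arrays were below its siControl arrays at either day. The silencing effect was -0.57 ± 0.16 at day 0 (adjusted p = 0.036) and -0.70 ± 0.16 at day 2 (adjusted p = 0.022). The day 0 result had an adjusted p of up to 0.099 without any 1 of the siControl or siBach1 day 0 arrays, siControl day 2 replicate 1, or siBach1 day 2 replicates 1 and 2, and the day 2 result of up to 0.07 without siControl replicates 1 or 3 or siBach1 replicates 1 or 2 of that day. With dim probes kept in both tests were lost (0.12 and 0.081), and the day 2 test was also lost with only the arrays of the comparison (0.094) and under the methods' t-test (0.18).

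Phosphofructokinase, which commits glucose to glycolysis, has a muscle (Pfkm), a liver (Pfkl) and a platelet form (Pfkp). Pfkm was at 2.80, 2.79 and 2.94 in siControl and 3.21, 3.18 and 3.23 with siBach1 at day 0, and 5.30, 5.33 and 5.25 against 5.49, 5.48 and 5.38 at day 2. Day 2 arrays were far above day 0 arrays, by 2.45 ± 0.07 in siControl (5.47-fold, adjusted p = 1.2e-08) and 2.24 ± 0.07 in siBach1 cells (adjusted p = 2.2e-08). Silencing raised it by 0.36 ± 0.07 at day 0 (adjusted p = 0.0072, or 0.064 with no filter on dim probes), and at day 2 the change was 0.16 (adjusted p = 0.2).

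The other forms fell or had no change past the test. Pfkl measured 2.93, 2.90 and 3.07 in siControl and 2.96, 2.97 and 2.85 with siBach1 at day 0, and 2.15, 2.03 and 2.41 against 1.63, 1.59 and 1.92 at day 2. It fell by 0.77 on the log2 scale with differentiation in siControl and by 1.21 in siBach1 cells. At day 2 silencing lowered it, with a change of -0.48 ± 0.12 (adjusted p = 0.027, up to 0.098 without siControl replicates 1 or 3 or siBach1 replicates 1 or 2 of that day), while a dimmer Pfkl probe had -0.13 (adjusted p = 0.85). That test was also lost with dim probes kept in, with only the arrays of the comparison, under the methods' t-test and in the mean of the Pfkl probes (-0.31, adjusted p = 0.36). Pfkp stood at 3.60, 3.86 and 3.56 in siControl and 3.48, 3.46 and 3.17 with siBach1 at day 0, and 3.54, 4.07 and 3.59 against 3.09, 3.18 and 3.08 at day 2. This brightest Pfkp probe had no change with differentiation past the test, and it was lower on all siBach1 arrays at either day, with a change of -0.30 at day 0 that did not pass. Of the 4 tested Pfkp probes, 3 passed as lower at day 2 (-0.61, -0.62 and -0.66) and the dimmest (A_65_P04184) had -0.66 with an adjusted p of 0.094. That dimmest probe was tested only through its siControl day 2 arrays, the high side of the day 2 comparison. With the replicate number as a block it passed at day 2 (0.018) and at day 0 (0.045). At day 0 it was well above background on 1 of 3 siControl and 0 of 3 siBach1 arrays, so no size is given there. The first of these values (A_66_P108602) had an adjusted p of up to 0.084 without siControl day 2 replicate 2 or any siBach1 day 2 array, and the second (A_52_P223083) of up to 0.12 without any array other than siControl day 2 replicate 1, siBach1 day 0 replicates 1 and 3 or siBach1 day 2 replicate 2. Both were lost with dim probes kept in, with only the arrays of the comparison and under the methods' t-test (up to 0.14 and 0.16), and the first also under quantile normalization (0.06). The last (A_51_P378856) stayed under 0.05 without each of the 12 arrays, but was lost when dim probes were kept in and under the methods' t-test after Benjamini-Hochberg adjustment (up to 0.1). Without the block only A_52_P223083 passed at day 0 (-0.58, adjusted p = 0.037, up to 0.11 without 7 of the 12 arrays, namely siControl day 0 replicates 1 to 3, siBach1 day 0 replicates 1 and 2, siControl day 2 replicate 3 and siBach1 day 2 replicate 1). Its day 0 change was -0.168 with an adjusted p of 0.27 after normexp background correction, and the test was also lost when dim probes were kept in (0.13), with only the arrays of the comparison (0.056) and under the methods' t-test after Benjamini-Hochberg adjustment (0.11).

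Of the remaining upper steps, Aldoc, the brain form of aldolase, rose by 2.19 in siControl and 1.53 in siBach1 cells on its brightest probe, and its 3 probes were within 2.19 to 2.27 and 1.53 to 1.68. The brightest Aldoc probe lay at -1.02, -0.87 and -1.51 in siControl and -1.02, -0.73 and -1.46 with siBach1 at day 0, and 0.84, 1.19 and 1.13 against 0.24, 0.56 and 0.57 at day 2. On it all day 2 arrays were above all day 0 arrays. Aldoa was at 8.74, 8.79 and 8.89 in siControl and 8.87, 8.96 and 9.08 with siBach1 at day 0, and 9.07, 8.96 and 9.22 against 8.71, 8.74 and 8.91 at day 2. This aldolase of muscle and many other cells rose by 0.28 in siControl cells (adjusted p = 0.033) and had -0.18 in siBach1 cells (adjusted p = 0.14). Hk2 measured 2.60, 2.62 and 2.39 in siControl and 2.38, 2.26 and 2.41 with siBach1 at day 0, and 2.10, 2.67 and 2.01 against 2.43, 2.39 and 2.29 at day 2. Hk1 stood at 6.90, 7.28 and 6.88 in siControl and 7.34, 7.31 and 7.12 with siBach1 at day 0, and 7.46, 7.40 and 7.32 against 7.22, 7.26 and 6.68 at day 2. The hexokinase Hk2, the isomerase Gpi1 and the brightest probes of Hk1 and Tpi1 changed by -0.29 to 0.38 in siControl cells with no test passed, although 2 dimmer Tpi1 probes fell by 0.43 and 0.39. In siBach1 cells the brightest Tpi1 probe fell by 0.46 (adjusted p = 0.008) and those dimmer probes by 0.57 and 0.51, while Hk2, Gpi1 and the brightest Hk1 probe changed by -0.20 to 0.02 with no test passed. The dimmest Tpi1 probe (A_55_P2715631) went the other way, with means of -3.57 at day 0 and -3.11 at day 2 in siControl cells. In siBach1 cells its means were -3.47 and -2.94. A dimmer Hk1 probe (A_55_P2027999) fell by 0.82 and 0.79, so the probes of that gene disagree.

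Phosphoglycerate mutase showed the widest split between isoforms. Pgam2 is the muscle form and Pgam1 the form of most other tissues. Pgam2 lay at 0.46, -0.08 and 0.08 in siControl and 0.69, 0.14 and 0.60 with siBach1 at day 0, and 5.11, 4.99 and 4.79 against 5.73, 5.85 and 5.71 at day 2. Its rise was 4.81 ± 0.17 in siControl (28.1-fold, adjusted p = 2.1e-08) and 5.28 ± 0.17 in siBach1 cells (38.9-fold). At day 2 the siBach1 arrays stood above the siControl arrays without overlap, by 0.80 ± 0.17 (1.74-fold, adjusted p = 0.016), and without siBach1 replicate 2 or siControl replicate 3 of that day the adjusted p was up to 0.057, and with dim probes kept in it was 0.062. Pgam1 was at 7.53, 7.62 and 7.52 in siControl and 7.40, 7.37 and 7.53 with siBach1 at day 0, and 6.42, 6.05 and 6.49 against 5.94, 5.90 and 6.10 at day 2. It fell by 1.24 in siControl and by 1.45 in siBach1 cells, and its 2 probes differed by little (-1.24 and -1.28 in siControl cells). At day 2 silencing gave -0.34 (adjusted p = 0.093).

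Enolase, which makes phosphoenolpyruvate, has a muscle form (Eno3), a general form (Eno1) and a neuronal form (Eno2). Eno3 measured 6.97, 6.90 and 7.04 in siControl and 6.93, 6.90 and 6.87 with siBach1 at day 0, and 7.92, 7.86 and 7.78 against 7.44, 7.46 and 7.33 at day 2. Differentiation raised it by 0.89 ± 0.07 in siControl (adjusted p = 4.4e-06) and by 0.51 ± 0.07 in siBach1 cells (adjusted p = 0.00019). At day 0 the siRNAs overlapped, and at day 2 all siBach1 arrays were lower, with a change of -0.44 ± 0.07 (1.36-fold lower, adjusted p = 0.0053), -0.44 on the first slide and -0.45 on the second. Quantile normalization between arrays took this to -0.24 with an adjusted p of 0.1, and the rise in siBach1 cells to 0.92. Eno1 stood at 7.91, 8.02 and 8.13 in siControl and 8.04, 8.04 and 8.21 with siBach1 at day 0, and 7.68, 7.32 and 7.70 against 7.47, 7.53 and 7.51 at day 2. It fell by 0.46 and by 0.59, and its other probes by 0.57 to 1.12. Eno2 lay at -1.02, -1.07 and -0.93 in siControl and -1.45, -1.52 and -1.45 with siBach1 at day 0, and -0.22, 0.18 and -0.01 against -0.08, -0.20 and -0.27 at day 2. It rose by 0.99 in siControl and by 1.29 in siBach1 cells, and silencing lowered it at day 0, with a change of -0.47 ± 0.10 (adjusted p = 0.013). With no filter on dim probes that adjusted p was 0.066, and normexp background correction gave -0.31.

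At the end of the pathway, Ldhb, the heart-type subunit of lactate dehydrogenase, rose with differentiation and with silencing. Ldhb was at 1.12, 0.97 and 1.14 in siControl and 1.42, 1.34 and 1.59 with siBach1 at day 0, and 2.47, 2.18 and 2.26 against 3.04, 3.15 and 3.02 at day 2. Its second probe (A_66_P116083) lay at -1.06, -1.48 and -1.21 in siControl and -1.02, -0.88 and -0.86 in siBach1 cells at day 0, and at -0.31, -0.23 and -0.19 against 0.61, 0.85 and 0.71 at day 2. On either probe the 4 conditions stood in the same order, with siBach1 above siControl at each day without overlap. At day 2 the silencing effect was 0.77 ± 0.10 (1.70-fold, adjusted p = 0.0016) and 0.97 ± 0.11 (1.95-fold, adjusted p = 0.0009), and it stayed past the test under each alternative tried. At day 0 it was 0.37 ± 0.10 (adjusted p = 0.031) on the first probe, with up to 0.12 without any siControl day 0 array or siBach1 day 0 replicates 1 or 3, and 0.33 (adjusted p = 0.075) on the second. The day 0 test on the first probe was also lost after normexp background correction (0.26, adjusted p = 0.096), with dim probes kept in (0.14), with only the arrays of the comparison (0.071) and under the methods' t-test (0.089).

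Ldha encodes the muscle-type subunit, which is found in most glycolytic cells. Its brightest probe measured 8.16, 8.34 and 8.44 in siControl and 8.34, 8.31 and 8.60 with siBach1 at day 0, and 8.21, 8.06 and 8.26 against 7.78, 7.98 and 7.83 at day 2. That brightest probe changed by -0.14 with differentiation in siControl (adjusted p = 0.33) and fell by 0.55 in siBach1 cells, and the second fell by 0.97 and 1.25. At day 2 silencing gave -0.31 (adjusted p = 0.098) and -0.25 (adjusted p = 0.17). Pkm (pyruvate kinase) fell by 0.55 in siControl and by 0.96 in siBach1 cells on its brightest probe. Gapdh changed by -0.10 to 0.23 over its 7 probes in siControl cells with no test passed, and fell on 6 of them in siBach1 cells, by 0.34 to 0.46.

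Pgk1, which makes the first ATP of the pathway, had 2 tested probes that disagreed. Pgk1 stood at 9.03, 9.04 and 9.10 in siControl and 9.14, 9.11 and 9.24 with siBach1 at day 0, and 8.72, 8.59 and 8.62 against 8.29, 8.30 and 8.40 at day 2. All siBach1 arrays of this bright probe were below the siControl arrays at day 2 and above them at day 0. The changes were 0.11 at day 0 (adjusted p = 0.35) and -0.31 ± 0.07 at day 2 (adjusted p = 0.023, up to 0.086 without siControl replicates 1 or 3 or siBach1 replicates 1 or 2 of that day). The day 2 change was also lost under quantile normalization (-0.13), when dim probes were kept in, with only the arrays of the comparison, with the methods' t-test after Benjamini-Hochberg adjustment and in the mean of its probes (-0.12, adjusted p = 0.7). A dim probe (A_52_P1061559) had 0.44 and 0.08 with no test passed.

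Pdk4 encodes a kinase that shuts off pyruvate dehydrogenase and so spares pyruvate, and it had the largest silencing effect of any member at either day. Pdk4 lay at 0.47, 0.31 and 0.88 in siControl and 2.17, 2.07 and 2.87 with siBach1 at day 0, and -0.21, -0.52 and -0.18 against 1.51, 1.51 and 1.79 at day 2. The siBach1 arrays stood above the siControl arrays of their day without overlap, and each siRNA had lower values at day 2 than at day 0. The silencing effect was 1.82 ± 0.22 at day 0 (3.52-fold, adjusted p = 0.0004) and 1.91 ± 0.22 at day 2 (3.75-fold, adjusted p = 0.00074). On the first slide it was 1.73 and 1.88, and on the second 1.99 and 1.97. Only 29 tested probes of the whole array rose more at day 0 and 91 at day 2. With differentiation Pdk4 fell by 0.85 ± 0.22 in siControl (adjusted p = 0.0071) and by 0.77 in siBach1 cells (adjusted p = 0.012). The difference between its silencing effects at the 2 days was 0.09 ± 0.31 (adjusted p = 0.92). It passed under each alternative tried, with adjusted p-values of up to 0.042 at day 0 and 0.024 at day 2.

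Glycogen phosphorylase releases glucose from glycogen, as a muscle (Pygm), a brain (Pygb) and a liver form (Pygl). Pygm was at -0.51, -0.74 and -1.33 in siControl and -0.46, -0.64 and -1.14 with siBach1 at day 0, and 2.85, 2.95 and 2.74 against 3.12, 3.18 and 2.95 at day 2. On this brighter probe the rise was 3.71 ± 0.22 in siControl (13.1-fold, adjusted p = 4.2e-07) and 3.83 ± 0.22 in siBach1 cells (adjusted p = 3.6e-07). The dimmer probe A_51_P458973 lay at -4.01, -3.77 and -3.85 in siControl and -4.37, -5.10 and -5.71 in siBach1 cells at day 0, and at 1.42, 1.63 and 1.37 against 1.87, 1.91 and 1.65 at day 2. It rose by 5.35 in siControl cells, and in siBach1 cells its change of 6.87 is set against a day 0 group mostly below the background limit. At day 0 it was called lower after silencing (-1.18 ± 0.26, adjusted p = 0.012), but only 1 of the 3 siBach1 arrays was well above background there, and the value was -0.85 on the first slide and -1.86 on the second. The brighter probe had 0.12 in the same comparison (adjusted p = 0.77), and normexp background correction took the dimmer one to -0.13 (adjusted p = 0.46). That call was also lost with only the arrays of the comparison (0.07) and under the methods' t-test (0.15). Another Pygm probe was well above background on no array.

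Pygb measured 1.41, 1.39 and 1.60 in siControl and 1.48, 1.55 and 1.42 with siBach1 at day 0, and 0.78, 0.64 and 0.93 against 0.97, 0.93 and 1.24 at day 2. It fell by 0.68 in siControl and by 0.44 in siBach1 cells. Pygl was well above background on no array, at -6.78 to -5.40 as group means, so no change is given.

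Phosphorylase kinase switches glycogen phosphorylase on, and Phka1 is its muscle alpha subunit. Phka1 stood at 1.08, 0.94 and 1.11 in siControl and 1.11, 1.02 and 1.07 with siBach1 at day 0, and 1.50, 1.37 and 1.44 against 1.92, 2.03 and 2.05 at day 2. At day 0 the siRNAs overlapped, and at day 2 all siBach1 arrays were higher, by 0.56 ± 0.08 (1.48-fold, adjusted p = 0.0021), which held under each alternative tried. The rise with differentiation was 0.39 ± 0.08 in siControl (adjusted p = 0.0017) and 0.93 ± 0.08 in siBach1 cells (adjusted p = 4.3e-06). Phkg1, its muscle catalytic subunit, passed the background test on 1, 0, 1 and 2 arrays of siControl day 0, siBach1 day 0, siControl day 2 and siBach1 day 2 and was not tested. Its arrays lay at -4.83, -6.84 and -6.49, then -6.22, -6.65 and -6.16, -4.62, -4.40 and -5.08 and -4.38, -4.61 and -3.64 in the same order. The beta subunit Phkb rose by 1.27 and by 1.45 on its bright probe, and a dim probe, not well above background at day 0 and so tested only through day 2, was at least 1.50-fold and at least 1.69-fold higher (adjusted p = 0.00017 and 0.00072).

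Of the enzymes that build glycogen, glycogen synthase (Gys1) rose by 1.58 in siControl and 1.31 in siBach1 cells. Gbe1, the branching enzyme, fell by 1.02 and by 0.58. After silencing it was higher at day 2 by 0.34 ± 0.08 (adjusted p = 0.021, up to 0.079 without siControl replicate 1 or siBach1 replicates 1 or 3 of that day). That test was also lost with dim probes kept in (0.13), with only the arrays of the comparison, under the methods' t-test and in the mean of its probes. Ugp2, which makes UDP-glucose, rose on silencing by 0.30 at day 0 (adjusted p = 0.026) and 0.28 at day 2 (adjusted p = 0.041). The former had up to 0.1 without siControl replicates 1 or 3 or siBach1 replicates 2 or 3 of day 0, and the latter up to 0.13 without any array other than siControl day 2 replicate 2 and siBach1 day 0 replicate 3. Both were lost with dim probes kept in (0.15 and 0.21), with only the arrays of the comparison and under the methods' t-test.

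Creatine kinase moves phosphate between ATP and creatine. Ckm, the muscle form, had the largest rise with differentiation in siControl cells. Ckm lay at -2.56, -2.64 and -3.21 in siControl and -2.62, -2.99 and -3.62 with siBach1 at day 0, and 3.96, 3.99 and 3.88 against 3.77, 3.81 and 3.52 at day 2. The rise was 6.75 ± 0.24 in siControl (108-fold, adjusted p = 2e-08) and 6.78 ± 0.24 in siBach1 cells (110-fold, adjusted p = 3e-08), with silencing effects of -0.27 (adjusted p = 0.49) and -0.24 (adjusted p = 0.57). Across the alternatives the log2 rise of Ckm ranged from 5.65 to 6.87 in siControl and from 5.54 to 7.01 in siBach1 cells. Ckb was at 3.32, 3.40 and 3.40 in siControl and 3.24, 3.24 and 3.23 with siBach1 at day 0, and 5.26, 4.69 and 5.60 against 4.67, 4.52 and 4.78 at day 2. This brain form rose as well, by 1.81 and by 1.42. Silencing gave -0.53 at day 2 (adjusted p = 0.094).

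For the mitochondrial form Ckmt2 and for Ampd1, the AMP deaminase of muscle, no day 0 array was well above background. A bound is then given, the day 2 mean against the lowest signal that counted as well above background on the day 0 arrays. Ckmt2 measured -7.26, -6.68 and -6.27 in siControl and -7.09, -6.52 and -5.98 with siBach1 at day 0, and -2.54, -2.49 and -3.58 against -3.13, -2.35 and -3.83 at day 2. It was at least 3.42-fold higher at day 2 in siControl and at least 2.42-fold in siBach1 cells (adjusted p = 3.6e-05 and 8.1e-05). Ampd1 stood at -7.49, -6.90 and -6.50 in siControl and -7.24, -6.66 and -6.17 with siBach1 at day 0, and -3.18, -2.84 and -3.12 against -3.05, -2.93 and -3.32 at day 2. It was at least 3.02-fold and at least 2.42-fold higher (adjusted p = 1.9e-06 and 3.1e-06). These bounds hold for the main processing only. Over the alternatives the fitted log2 rise of Ckmt2 went as low as 1.32 in siControl and 0.81 in siBach1 cells. That of Ampd1 went as low as 1.11 and 0.82. Silencing effects at day 2 were -0.24 and -0.05 with no test passed. Ak1 lay at 5.85, 5.72 and 5.89 in siControl and 6.01, 5.90 and 6.23 with siBach1 at day 0, and 6.54, 6.54 and 6.61 against 6.53, 6.55 and 6.56 at day 2. This adenylate kinase of muscle rose by 0.74 ± 0.09 in siControl (adjusted p = 6.3e-05) and by 0.50 ± 0.09 in siBach1 cells (adjusted p = 0.00088). Over the alternatives these rises ranged from 0.65 to 0.87 and from 0.43 to 0.86.

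**Figure D3:**
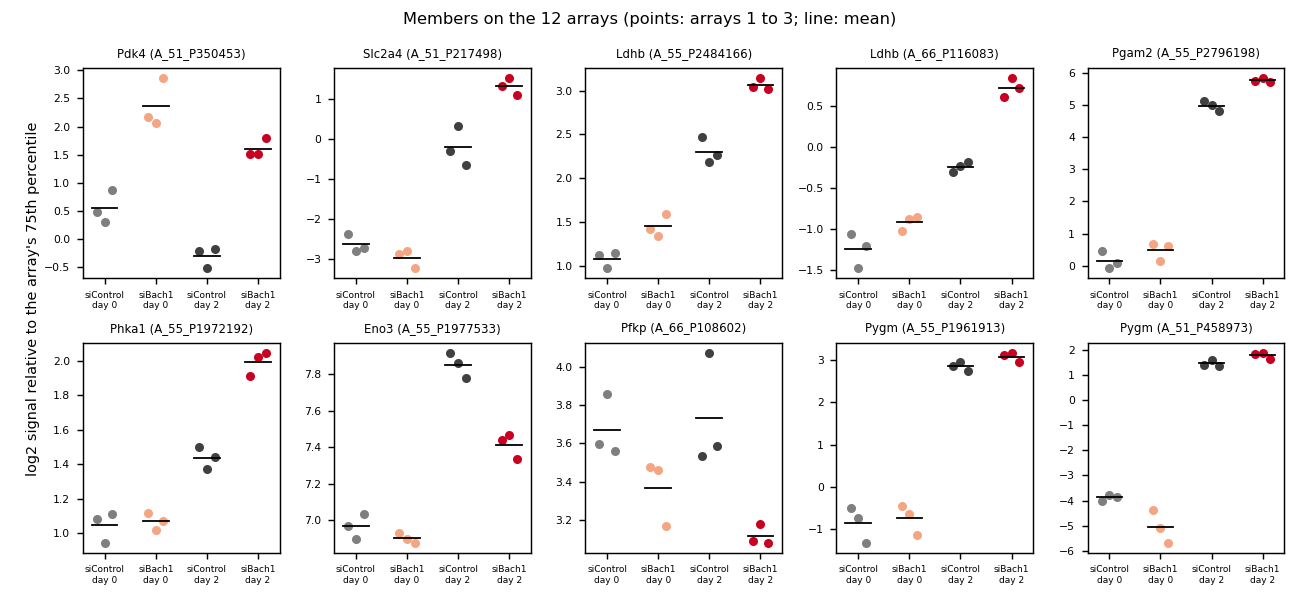
Log2 signal relative to the 75th percentile of each array for 10 probes of 8 members, with 1 point per array and a line at the mean of 3. Pdk4 and both probes of Ldhb are higher in siBach1 than in siControl cells at either day, Slc2a4, Pgam2 and Phka1 are higher without overlap at day 2 and not at day 0, Eno3 is lower without overlap at day 2 and not at day 0, and Pfkp is lower at either day.

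The muscle isoforms Slc2a4, Pfkm, Pgam2, Eno3, Pygm and Ckm were then set against other isoforms of their families on the same arrays. The value is the change of the first gene minus the change of the second. There were 8 such pairs, and Pfkm and Eno3 each stood in 2 of them, so the pairs are not independent. With differentiation the change of the muscle isoform was the higher one, without overlap between the arrays of the 2 days, in 7 of 8 pairs with either siRNA. The excess in siControl cells was largest for Pgam2 and Pgam1 at 6.05 ± 0.51 (SD of 3 replicate differences), followed by Ckm and Ckb at 4.94 ± 0.39 and Pygm and Pygb at 4.39 ± 0.37. Eno3 and Eno2 were the exception, with -0.10 ± 0.23 in siControl and -0.78 ± 0.08 in siBach1 cells. The exact permutation test of 3 against 3 arrays cannot give a two-sided p under 0.1, 7 of the pairs reached it in siControl cells, and the smallest adjusted p over the 12 pairs computed was 0.12 there and 0.15 for silencing at day 2.

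On silencing at day 2 the change of the muscle isoform was the higher one in 4 pairs, Slc2a4 and Slc2a1 (1.80 ± 0.53), Pgam2 and Pgam1 (1.13 ± 0.15), Pfkm and Pfkp (0.77 ± 0.23) and Pfkm and Pfkl (0.64 ± 0.06), and the lower one in the 2 pairs of Eno3, against Eno1 (-0.38 ± 0.19) and Eno2 (-0.28 ± 0.32). For the pair of Pygm and Pygb (-0.03 ± 0.09) and that of Ckm and Ckb (0.28 ± 0.25) the arrays overlapped. At day 0 it was higher without overlap between the arrays in 3 pairs, Pfkm against Pfkp (0.67 ± 0.13) and Pfkl (0.41 ± 0.10) and Eno3 against Eno2 (0.40 ± 0.05), and lower without overlap in 0. The excess of Pgam2 over Pgam1 at day 0 was of like size (0.45 ± 0.07) and above 0 in each of the 3 replicate numbers (0.37 to 0.51), although its arrays overlapped. Other pairs held no gene counted here as a muscle isoform, although Ldha among them encodes the muscle-type subunit of lactate dehydrogenase. With differentiation the change of Ldha minus that of Ldhb was -1.36 ± 0.12 in siControl and -2.17 ± 0.02 in siBach1 cells. This muscle-type form thus had the lower change, opposite to most pairs with a counted muscle isoform. On silencing at day 2 the difference of Ldha and Ldhb was -1.08 ± 0.10. The change of Slc16a3 minus that of Slc16a1 was -0.65 ± 0.08 on silencing at day 0.

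**Figure D4:**
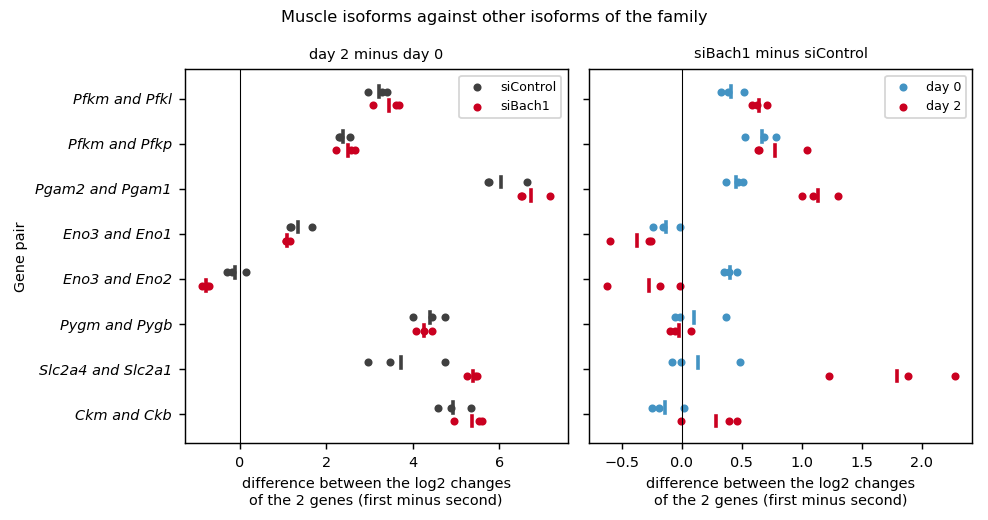
Change of the muscle isoform minus change of the other isoform for 8 pairs, on the log2 scale, from day 0 to day 2 (left) and from siControl to siBach1 (right), with 1 point per replicate number and a bar at the mean. Of the 8 pairs, 7 lie clearly right of 0 on the left side, and at day 2 on the right side the pair of Slc2a4 and Slc2a1 lies at 1.80 and the pair of Eno3 and Eno1 at -0.38.

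The silencing effect differed between the 2 days, by the test of that difference, for 4 member probes, 3 higher and 1 lower, against 2.39% and 2.2% of all tested probes. It was higher at day 2 for Slc2a4 by 1.85 ± 0.33 (adjusted p = 0.017), for the dim Pygm probe by 1.52 ± 0.37 (adjusted p = 0.048) and for Phka1 by 0.54 ± 0.11 (adjusted p = 0.027), and lower for Pgk1 by -0.42 ± 0.11 (adjusted p = 0.0499). Only the first kept its place on leaving out each array in turn (adjusted p up to 0.046), although without the filter on dim probes its adjusted p was 0.085. The Pgk1 test was lost on leaving out any 1 of the 12 arrays (up to 0.12), and quantile normalization took its difference to -0.084 (adjusted p = 0.81). The Pygm test was lost on leaving out any array other than siBach1 day 0 replicate 1 (up to 0.11), and the Phka1 test on leaving out any array other than siControl day 0 replicate 2, siControl day 2 replicate 1 and siBach1 day 0 replicate 1 (up to 0.073). With dim probes kept in both were lost (0.18 and 0.18), and normexp background correction took the Pygm difference to 0.47 (adjusted p = 0.12). Slc2a4 and the Pygm probe were called, 2 of 71, where 0.981% of all tested probes were called higher and 0.458% lower. With the replicate number as a block 16 member probes passed in place of 4, against 13% of all tested probes, and 6 of the 12 gained were Gapdh probes (-0.33 to -0.49). Eno3 (-0.37, block adjusted p = 0.041) and Aldoa (-0.46, block adjusted p = 0.017) were also among them. Median differences were -0.15 for the members and -0.07 over all tested probes.

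Promoter sequences, 250 bases before to 50 after a start site, were taken from RefSeq (GRCm38.p6) for 36 of the 38 members, 51 promoters in all. They are described because the muscle isoforms rose together. Ckm, Pgam2 and Pygm are shown as the members with the largest measured rises in siControl cells. In siBach1 cells Slc2a4 rose by 4.26, more than Pygm on its brighter probe (3.83), but Slc2a4 and Ampd1 are the members without a promoter here. The E-box CAGCTG, the form bound by myogenic factors such as MyoD, was searched on both strands and is its own reverse complement. It was found for 7 of 9 muscle isoform genes (Ak1, Ckm, Ckmt2, Eno3, Pgam2, Phka1 and Pygm) and 6 of 27 other members, while 18.3% of all genes and 16.3% of all promoters hold it. The E-box CACCTG was found for 5 of 9 and 3 of 27, and for 22.6% of all genes and in 20.2% of all promoters. On the other strand it reads CAGGTG. Genes with several promoters, such as Ak1 and Pfkm with 4 each, have more room for a match. Capitals mark these 2 motifs and ACGTG in either direction, written 5′ to 3′ on the strand of the gene. In Ckm (chr7:19410844-19411143, plus strand) CAGCTG begins 249 bases upstream of the start site, in Pgam2 (chr11:5803747-5804046, minus strand) 125 bases upstream next to CAGGTG at 132, and in Pygm (chr19:6384158-6384457, plus strand) 168 and 8 bases upstream.
Ckm: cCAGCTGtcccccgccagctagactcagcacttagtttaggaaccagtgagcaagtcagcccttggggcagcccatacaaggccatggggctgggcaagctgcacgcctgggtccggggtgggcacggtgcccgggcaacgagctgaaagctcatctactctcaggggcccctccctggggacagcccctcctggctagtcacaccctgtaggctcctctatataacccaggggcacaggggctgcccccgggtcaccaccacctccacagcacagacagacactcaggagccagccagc
Pgam2: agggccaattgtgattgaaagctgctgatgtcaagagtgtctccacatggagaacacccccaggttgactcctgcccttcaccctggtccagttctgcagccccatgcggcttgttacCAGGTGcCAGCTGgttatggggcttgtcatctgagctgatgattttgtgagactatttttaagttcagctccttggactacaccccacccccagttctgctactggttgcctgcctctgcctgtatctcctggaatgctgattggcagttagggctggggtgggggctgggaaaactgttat
Pygm: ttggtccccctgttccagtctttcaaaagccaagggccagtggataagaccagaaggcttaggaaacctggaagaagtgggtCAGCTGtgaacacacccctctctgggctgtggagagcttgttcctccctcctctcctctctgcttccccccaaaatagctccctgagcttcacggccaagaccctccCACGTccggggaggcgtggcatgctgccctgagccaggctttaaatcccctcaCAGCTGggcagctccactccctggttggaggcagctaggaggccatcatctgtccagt

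Among the other members the more frequent motif was ACGTG, the core of the hypoxia response element, which reads CACGT on the other strand. It was found for 15 of 27 other members, including Ldha, Pgk1, Pgam1, Slc2a1, Slc16a3, Aldoa and Gapdh, and for 3 of 9 muscle isoforms, while 21.8% of all genes and 19.6% of all promoters hold it. CACGTG is a match on both strands. Ldha is shown because its promoter has the most matches and Pgk1 because its silencing effect differed between the days. In Ldha (chr7:46845554-46845853, plus strand) the matches begin 145, 144, 48, 47 and 34 bases upstream of the start site, and in Pgk1 (chrX:106186850-106187149, plus strand) 150 and 131 bases upstream.
Ldha: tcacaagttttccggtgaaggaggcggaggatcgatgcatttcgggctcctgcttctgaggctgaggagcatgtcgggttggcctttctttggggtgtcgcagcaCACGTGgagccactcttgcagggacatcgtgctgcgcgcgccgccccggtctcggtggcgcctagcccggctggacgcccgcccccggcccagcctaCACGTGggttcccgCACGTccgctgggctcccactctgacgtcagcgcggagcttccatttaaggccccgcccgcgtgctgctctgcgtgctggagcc
Pgk1: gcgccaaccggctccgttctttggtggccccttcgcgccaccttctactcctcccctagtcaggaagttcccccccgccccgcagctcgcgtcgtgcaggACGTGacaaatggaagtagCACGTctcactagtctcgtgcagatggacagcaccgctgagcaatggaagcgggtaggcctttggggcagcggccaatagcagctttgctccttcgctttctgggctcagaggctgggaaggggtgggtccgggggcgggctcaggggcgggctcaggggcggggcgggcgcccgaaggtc

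Motifs linked to Bach1 and to the AP-1 factors were searched as well. TGACNNNGC, the core of the antioxidant response element to which Bach1 binds with small Maf proteins, was found for 2 of 9 muscle isoforms (Ak1 and Ckmt2) and 3 of 27 others (Aldoa, Hk1 and Slc16a1), and for 14.0% of all genes and in 12.4% of all promoters. TGAGTCA, with which it can overlap, was found for Ak1 and Aldoa, for 5.95% of all genes and in 5.2% of all promoters. Pdk4 is shown because it had the largest silencing effect. Its promoter (chr6:5496229-5496528, minus strand) holds none of the 5 motifs in this window, nor does that of Ldhb, which says only that these letters are not there.
Pdk4: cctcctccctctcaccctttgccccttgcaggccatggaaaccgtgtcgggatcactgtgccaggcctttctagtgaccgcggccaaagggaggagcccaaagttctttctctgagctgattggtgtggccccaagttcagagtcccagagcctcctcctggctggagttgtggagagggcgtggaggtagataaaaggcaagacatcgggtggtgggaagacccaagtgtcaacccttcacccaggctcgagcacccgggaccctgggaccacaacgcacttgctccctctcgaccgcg

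The pathway was widened to 53 further genes of sugar, glycogen and adenylate metabolism, of which 52 were on the array and 43 were tested. In siControl cells 14 of them passed as higher and 12 as lower with differentiation, and in siBach1 cells 18 and 12. The counts of higher genes include Ppp1r3a and Ldhd with either siRNA and Slc2a3 in siBach1 cells. These were tested only through siBach1 day 2, so they had to be higher there. In siControl cells Ppp1r3a and Ldhd were well above background on no array, so their changes there lie below that limit. On silencing 4 passed as higher and 5 as lower at day 0, and 7 and 4 at day 2, against the shares of all tested probes given above. Called lower at day 0 were the adenylate kinases Ak3 (-1.75 ± 0.12, adjusted p = 1.6e-05) and Ak4 (-1.15 ± 0.22, adjusted p = 0.0058) and the glycogen synthase kinase Gsk3a (-1.39 ± 0.11, adjusted p = 3.1e-05). At day 2 Ak4 was called lower again (-1.13 ± 0.22, adjusted p = 0.01). Called higher at day 2 were Ppp1r3a, the muscle subunit that targets protein phosphatase to glycogen, and Ldhd, a lactate dehydrogenase for D-lactate, and either was well above background only on the siBach1 day 2 arrays, so that it was tested through the group where it was high. The median change of the 43 genes was 0.08 at day 0 and -0.0085 at day 2.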

How the data were processed

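Total RNA from 12 samples was hybridised to 1-colour Agilent mouse arrays, 3 per condition. The deposited scanner files of the authors hold spot intensity values on a linear scale, background-subtracted by Agilent Feature Extraction (version 9.1 per the submitters' processing notes, 10.7.3.1 per the file headers), with other columns of the deposited files marking spots as well above background, saturated or outliers. A deposited table of the whole series holds log2 values that the authors normalized in GeneSpring 14.5, and supplied the gene symbols. The alignment of symbols was checked through RefSeq accessions, which 62 member probes carried. Of these, 60 were found and all 60 had the same symbol.

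Here, outlier and control spots were left out, spots of a probe were averaged, and log2(processed signal) minus the 75th percentile of the array was used. The log2 values of the authors are centred on the median of each probe. After the same centring the values used here differed from them by under 0.01 for 99.93% of entries. A probe entered the test (29664 of 56605) where some condition had it well above background in each of its 3 arrays. limma 3.58.1 in R 4.3.3 was fitted over all 12 arrays with lmFit and eBayes, with 5 contrasts, the day 2 minus day 0 change for each siRNA, the siBach1 minus siControl change for each day, and the difference of the latter pair, and Benjamini-Hochberg adjustment over all tested probes of a contrast. No genome was used, and promoter sequences came from RefSeq. Figures and tables were made in Python 3.11 with pandas 2.3.3 and numpy 2.4.6.

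The members and gene lists were chosen with earlier results of these data known. All members are described, with every array's value for those called in a silencing comparison, the muscle isoforms and the isoforms set against them. Counts and medians over genes take the tested probe with the highest mean. Of the further pathway genes, those called on silencing were to be named, and the others named in the closing section were chosen after their values were seen. Same-numbered samples deviated together (18 pairs, correlation 0.142 to 0.5952) more than differently numbered ones (36 pairs, -0.4425 to 0.2645), and every same-number correlation was over 0.1, so the replicate number was also used as a block. The labels give no shared culture or day for a number, although numbers 1 and 2 lay on the same slide. When the fit was checked on data made with known changes over the 29664 probes, 34%, 72%, 86% and 90% of probes changed 1.5-, 2-, 3- and 4-fold at day 2 passed, with 9 false calls, and 16%, 48%, 76% and 82% in the test of the difference. The made data had independent noise on each array and only 50 changed probes of each size, all in siBach1 day 2. In the real arrays same-numbered samples deviated together and many more probes changed, so these rates need not hold for them. The number of arrays limits the precision. Alternatives covered normalization, background correction, the filter, the samples in the fit, the test, blocks and probes of a gene.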

Additional observations from a re-analysis of the deposited data

Results flagged for a closer look

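The silencing effect differed between day 2 and day 0 by the test of that difference for 4 member probes. For Slc2a4 (A_51_P217498) the effect was higher at day 2 by 1.85. For Phka1 (A_55_P1972192) it was higher by 0.54, and for the dim Pygm probe (A_51_P458973) by 1.52, where the siBach1 day 0 side was well above background on 1 of 3 arrays and the brighter Pygm probe had 0.12. For Pgk1 (A_55_P2745836) it was lower by -0.42, at an adjusted p of 0.0499, the test was lost on leaving out any 1 of the 12 arrays (up to 0.12), and quantile normalization took the difference to -0.084 (adjusted p = 0.81). The Phka1 test was lost on leaving out any 1 of 9 arrays and the Pygm test any 1 of 11. With dim probes kept in, the tests of Slc2a4 (adjusted p = 0.085), Phka1 (0.18) and Pygm (0.18) were lost. No explanation was tested for these differences.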

How the results depend on the processing

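No called result reversed its direction under the alternatives tried. The difference of the class medians in the difference of the silencing effects, 0.06 and not tested, turned sign without siBach1 day 0 replicate 3 (-0.0347) and without siControl day 2 replicate 3 (-0.0206). Of the alternative values of the main results, 375 moved little and 61 moved, and of those of single probes, 1042 stayed on the same side of the threshold and 176 lost it. With the adjusted p alone in place of the 2-fold limit, member probes called became 4 higher and 5 lower (silencing, day 0), 8 and 7 (silencing, day 2), 23 lower (siControl differentiation), 31 lower (siBach1 differentiation) and 1 lower (difference of the silencing effects). Lower calls at day 0 became 0 with normexp, with the filter on all 12 arrays, with only the arrays of the comparison, with the methods' t-test after Benjamini-Hochberg, with 1 probe per gene and with the mean of probes, and higher calls at day 2 became 1 with that t-test. Lower calls with differentiation became 4 in siControl cells with quantile normalization, 1 probe per gene or the mean of probes, and 5, 4 and 5 in siBach1 cells. Higher calls for the difference became 1 with normexp, the filter on all 12 arrays, 1 probe per gene and the mean of probes, 0 with no filter, and 1 with no filter and the replicate block together, an alternative added after seeing the data.

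Muscle isoform median minus that of the other members, on silencing, became 0.0622 (quantile), 0.0234 (filter on all 12 arrays) and 0.0522 (no filter) at day 0, 0.4128, 0.3572 and 0.1803 (filter on all 12 arrays, no filter, mean of probes) at day 2, and 0.2232 and 0.1938 (filter on all 12 arrays, no filter) for the difference. With differentiation it became 1.7078 (normexp), 2.6387 (filter on all 12 arrays) and 2.5863 (no filter) in siControl and 1.9782 (normexp) in siBach1 cells. On leaving out each array in turn, calls ranged from 1 to 2 (higher, day 0), 0 to 1 (lower, day 0), 2 to 3 (higher, day 2) and 1 to 2 (higher, difference). With differentiation they ranged from 17 to 19 higher and 5 to 10 lower in siControl cells. In siBach1 cells these ranges were 19 to 20 and 9 to 11. On silencing, the class medians differed by 0.0032 to 0.121 (day 0), 0.2102 to 0.3779 (day 2) and -0.0347 to 0.2289 (difference). With the replicate number as a block, counts at the adjusted p became 12 (day 0), 27 (day 2) and 16 (difference) in place of 9, 15 and 4, and it changed no 2-fold call. These counts are of 71 member probes, and 27.5%, 21.3% and 13% of all tested probes passed in that fit. The cause of these shifts was not tested. Dim probes limit Pygl, Phkg1, Ckmt2, Ampd1 and 1 Pygm probe.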

Other observations

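Further genes of the pathway moved with differentiation beside the members. In siControl and siBach1 cells respectively, the log2 rise was 5.13 and 5.87 for Pgm5, a phosphoglucomutase-like protein of muscle adhesion sites, 4.54 and 4.13 for Prkag3, the muscle gamma subunit of AMP kinase, and 3.25 and 3.07 for Gpd1, the cytosolic glycerol-3-phosphate dehydrogenase. The rise was 3.04 and 2.74 for Pdk2, a pyruvate dehydrogenase kinase, whereas Pdk4, a member of the same family, fell. Genes that fell included Pfkfb1, which makes the activator of phosphofructokinase, by 1.55 and 1.57. These genes were chosen after their values were seen.

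On silencing at day 2, the glycogen primer Gyg rose by 0.65 and the AMP deaminase Ampd3 by 0.90, while Ampd1 had -0.05 with no test passed. Pdp1, the phosphatase that reverses the action of the Pdk kinases, rose by 0.58 at day 0 and 0.46 at day 2, as Pdk4 did by 1.82 and 1.91. Gyg, Ampd3 and Pdp1 passed without reaching 2-fold and were also chosen after their values were seen.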
